A study of Mus musculus with 6 samples.

Results

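A set of 6 genes of the phagocyte NADPH oxidase, the enzyme that phagocytes use to turn oxygen into superoxide, were followed in bone marrow monocytes with and without GM-CSF (granulocyte-macrophage colony-stimulating factor), a growth factor of the myeloid lineage. They were taken by symbol from the count table, as the rows Cybb, Cyba, Ncf1, Ncf4, Rac1 and Rac2, 6 of 24421 gene entries, and all 6 were among the 11731 genes that passed the filter on low counts. Other subunits of the complex were not analysed here. Poly(A) RNA came from monocytes of B6 mice in 6 libraries. In 3 of them the cells had received GM-CSF (5 ng, with no volume given) for 3 h, and the other 3 were controls without the cytokine. The labels differ on the controls, which are described both as fresh from isolation and as held in medium without GM-CSF, so that time in culture and GM-CSF cannot be told apart if the controls were not cultured. No label says whether replicates came from separate mice, and the tests therefore see only library-to-library spread, which could be technical.

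The oxidase is taken apart in resting cells. Its catalytic core, flavocytochrome b558, sits in membranes and is a pair of proteins, gp91phox (from Cybb, also called NOX2), which carries electrons from NADPH to oxygen, and p22phox (from Cyba), its stabilising partner. Cytosolic subunits, p47phox (Ncf1) and p40phox (Ncf4) among them, move to the core when the cell is triggered, and a small GTPase of the Rac family (Rac1 or Rac2) binds in its active form to complete the enzyme. Loss of Cybb, Cyba, Ncf1 or Ncf4 is known to cause chronic granulomatous disease, in which phagocytes fail to kill certain microbes.

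The libraries held 16643228 to 25232956 reads in genes. The response gene Cish, at 0.917, 2.30 and 1.15 CPM (counts scaled to a common total of reads in genes) in the controls, stood at 1951, 1857 and 2329 CPM with GM-CSF, which matches the labels. Csf1r, a receptor gene that marks monocytes, was at 1450 ± 132 CPM in controls and 1642 ± 39.6 CPM with GM-CSF (SD, n = 3). The 10 monocyte markers summed to 63904 to 73417 CPM in controls and 29836 to 32682 CPM with GM-CSF. Most of these sums was Lyz2 alone, at 56025 ± 4548 CPM in controls and 21394.5 ± 1053 CPM with GM-CSF. Of the 10 markers, 7 fell, 1 rose and 2 were not called. The libraries also held RNA of the neutrophil lineage, whose cells carry the same oxidase. The 15 neutrophil and precursor markers with a row summed to 23015 to 29414 CPM in controls and 13841 to 17827 CPM with GM-CSF. This sum need not be neutrophil RNA alone, and Chil3 and Mpo, at 6020 and 4164 CPM on average in controls, are counted in it. Of the 15, 9 fell and 1 rose. Among them Ngp fell from 5282 ± 952 to 2203 ± 272 CPM, whereas Elane, a gene of earlier precursors, was at 2312 ± 411 and 2460 ± 294 CPM (log2 fold change 0.10, edgeR adjusted p = 0.498). Sums of the T cell and NK cell markers were at most 2.17 and 1.33 CPM in any library, and those of B cells and plasmacytoid dendritic cells at most 79.6 and 77.9 CPM. Most of the plasmacytoid sum was Bst2, at 69.4 CPM on average in controls. Siglech, Ccr9 and Pacsin1 were at 3.07, 1.43 and 0.202 CPM there. GM-CSF replicate 3 stood somewhat apart from the other GM-CSF libraries, with correlations across genes of 0.980 and 0.983 against 0.990 between the other pair. That library had a read in 13378 genes, against 14003 and 14056 in GM-CSF replicates 1 and 2, which had fewer reads in genes.

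The sequences around the start of transcription are shown for the genes of both flavocytochrome chains, which fell, and for Ncf1, which did not pass the test. These were the members for which RefSeq windows on GRCm38.p6 were at hand, 3 of 6. Each runs 5′ to 3′ on the gene's own strand from 250 bases before the start to 50 bases after it. For Cybb the start, at 9469324, is that of the longest GENCODE transcript, and another annotated transcript begins upstream, at 9487771, so the window lies within the gene's full span. The windows are chrX:9469275-9469574 for Cybb, chr8:122432891-122433190 for Cyba and chr5:134229576-134229875 for Ncf1, all 3 on the minus strand. Capitals mark letters that match one of 5 motifs searched on both strands.
Cybb: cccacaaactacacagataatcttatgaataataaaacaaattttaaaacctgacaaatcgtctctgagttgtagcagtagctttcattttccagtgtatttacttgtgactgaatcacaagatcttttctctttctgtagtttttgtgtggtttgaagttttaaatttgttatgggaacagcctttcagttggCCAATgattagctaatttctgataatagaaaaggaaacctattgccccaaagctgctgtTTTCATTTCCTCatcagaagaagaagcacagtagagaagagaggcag
Cyba: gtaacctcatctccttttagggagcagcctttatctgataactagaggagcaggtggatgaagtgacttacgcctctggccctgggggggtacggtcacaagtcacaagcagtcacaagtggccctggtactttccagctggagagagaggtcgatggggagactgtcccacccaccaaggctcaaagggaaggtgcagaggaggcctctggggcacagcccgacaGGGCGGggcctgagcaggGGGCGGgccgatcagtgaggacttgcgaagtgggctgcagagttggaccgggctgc
Ncf1: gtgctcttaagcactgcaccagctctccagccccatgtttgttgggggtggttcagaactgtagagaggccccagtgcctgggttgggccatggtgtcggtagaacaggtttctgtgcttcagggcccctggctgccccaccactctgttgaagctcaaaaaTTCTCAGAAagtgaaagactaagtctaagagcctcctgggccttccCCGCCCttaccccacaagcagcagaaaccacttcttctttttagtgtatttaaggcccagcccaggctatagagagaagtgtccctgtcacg
In the Cybb window the capitals mark a CCAAT box and, just after the start, a stretch that read on the other strand holds the core of sites for PU.1 (GAGGAA) overlapping the composite motif of PU.1 with an interferon regulatory factor. Of 32851 windows of this length, 37.4% held CCAAT, 28.3% GAGGAA and 2.72% the composite motif. The Cyba window held 2 GC boxes (GGGCGG, in 35.7% of windows) and none of the other motifs. The Ncf1 window held 1 GC box on the other strand and 1 match to the GAS motif of STAT factors (TTCNNNGAA, in 8.30% of windows). A match describes the letters only. The windows also differed in base composition, with 35.3% G and C for Cybb, 60.7% for Cyba and 54.0% for Ncf1.

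With GM-CSF, 3 of the 6 genes fell, none rose and 3 did not pass the test. Over all genes tested, 64.0% were called and 31.2% were called lower, at an adjusted p under 0.05 in edgeR's quasi-likelihood test, so a share of 3 lower among 6 is not far from that of genes in general. The groups did not overlap for the same 3 genes, while 69.5% of all genes had groups without overlap 34.7% had all GM-CSF libraries below all controls and 34.9% had them above. Cybb alone of the 6 was called and at least 2-fold lower, as were 12.6% of all genes. The median log2 fold change was -0.22 over the 6 genes and 0.01 over all genes. In these bulk libraries, fewer cells of a type and less RNA per cell cannot be told apart.

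Cybb had the largest change of the 6 genes. It stood at 2193, 2582 and 2167 CPM in the controls and at 949.9, 1018 and 906 CPM in the GM-CSF libraries. Every GM-CSF library was thus below every control, and the controls were led by replicate 2. The log2 fold change was -1.27 ± 0.09 (SE; edgeR adjusted p = 4.84e-07), a level 2.40-fold lower, and 9.10% of all tested genes had a lower value. The gene lies on chromosome X at 9435252 to 9487771 (GRCm38, GENCODE M21), on the minus strand, with 13 exons in its longest transcript, and no annotated gene overlapped it. Of the 10 monocyte markers given above, 7 fell, 1 rose and 2 were not called. Of the 15 neutrophil markers, 9 fell, 1 rose and 5 were not called. The part of these mixed changes in the falls of Cybb, Cyba and Rac2 was not tested.

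Cyba, whose product pairs with that of Cybb in the membrane, fell far less. Its libraries were at 1191, 1127 and 1304 CPM in controls and 900.2, 883 and 999 CPM with GM-CSF. The groups stayed apart, with 999 CPM in GM-CSF replicate 3 as the highest treated value and 1127 CPM in control replicate 2 as the lowest control. The log2 fold change was -0.37 ± 0.08 (adjusted p = 0.00219), or 1.29-fold lower, and 62.9% of all genes had a larger absolute change. Cyba lies on chromosome 8 at 122424776 to 122432930, where the antisense gene model Gm20388 overlaps it. The use of strand in counting is not given in the sources used here, so reads of such partners could be mixed.

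**Figure D1:**
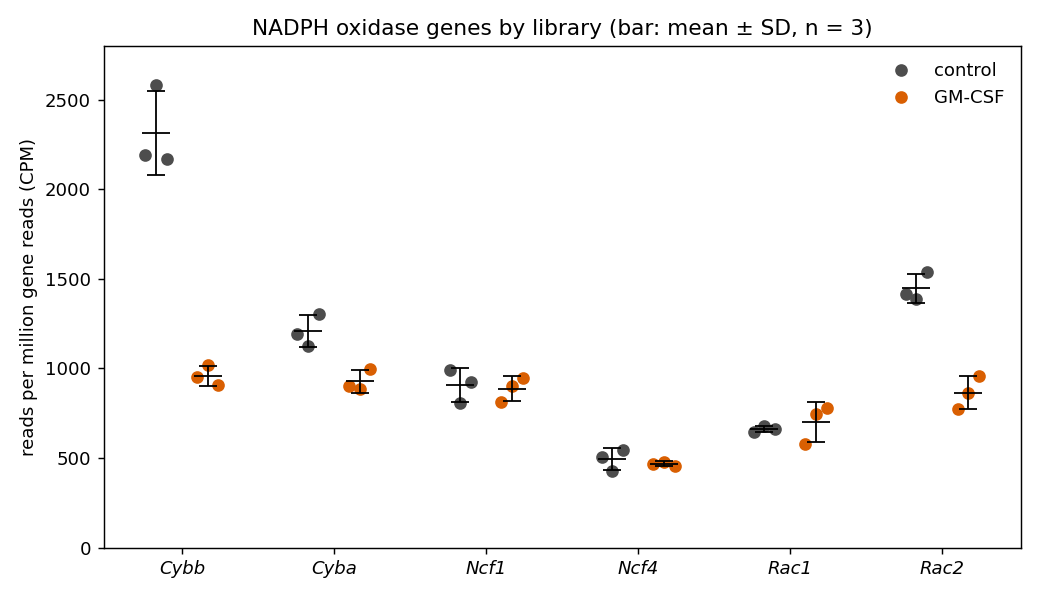
Level in CPM of the 6 genes (y axis) in each control library (grey points) and each GM-CSF library (orange points), with the mean and SD of 3 libraries. Cybb, Cyba and Rac2 have all GM-CSF points below all control points, with Cybb going from 2167 to 2582 CPM down to 906 to 1018 CPM, and Ncf1, Ncf4 and Rac1 overlap.

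The cytosolic subunits showed no call. Ncf1, the organiser that carries the other cytosolic subunits to the membrane, was at 991, 806 and 923 CPM in controls and at 811, 901 and 947 CPM with GM-CSF. The groups overlapped over nearly their full range. Its log2 fold change was -0.03 with a 95% interval of -0.23 to 0.18 (adjusted p = 0.815). Ncf4, whose product binds a phosphoinositide of phagosome membranes, was at 504, 427 and 547 CPM in controls and 469.6, 481 and 455 CPM with GM-CSF, all 3 of the latter inside the control range. The log2 fold change was -0.07, with an interval of -0.26 to 0.13 (adjusted p = 0.529). The sign of both changes turned without single libraries, to 0.02 for Ncf1 without GM-CSF replicate 1 and to 0.05 without control replicate 1, and Ncf4 came to 0.00 without control replicate 3. Ncf1 lies on chromosome 5 at 134220053 to 134229625, overlapped on the other strand by Gtf2ird2, and Ncf4 on chromosome 15 at 78244801 to 78262580 with no overlapping gene.

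Of the GTPase genes, Rac2 fell and Rac1 was not called. Rac2, the form that is found mainly in blood cells, was at 1414, 1390 and 1539 CPM in controls and at 775, 864 and 956 CPM with GM-CSF. All GM-CSF libraries were lower than all controls. The log2 fold change was -0.74 ± 0.09 (adjusted p = 2.45e-05), a level 1.67-fold lower. Rac1, the form present in most cell types, was at 645, 681 and 660.5 CPM in controls and at 576, 749 and 779 CPM with GM-CSF, so that GM-CSF replicate 1 lay below the controls and the other GM-CSF libraries above them. Its log2 fold change was 0.09 with an interval of -0.14 to 0.31 (adjusted p = 0.465), and -0.03 with upper quartile scaling. Without GM-CSF replicate 1, Rac1 was called higher (0.20, adjusted p = 0.0354), which made 4 calls of the 6. Rac2 lies on chromosome 15 at 78559167 to 78572783 with no overlapping gene, and Rac1 on chromosome 5 at 143503634 to 143528036, overlapped on the other strand by Daglb and Gm42502. The longest transcripts of Rac1 and Rac2 shared no identical run of more than 29 bases. No stretch of 100 bases from the longest transcript of any of the 6 genes occurred, in the same orientation, in another gene's transcripts. The opposite orientation, that of the antisense partners, was not searched.

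**Figure D2:**
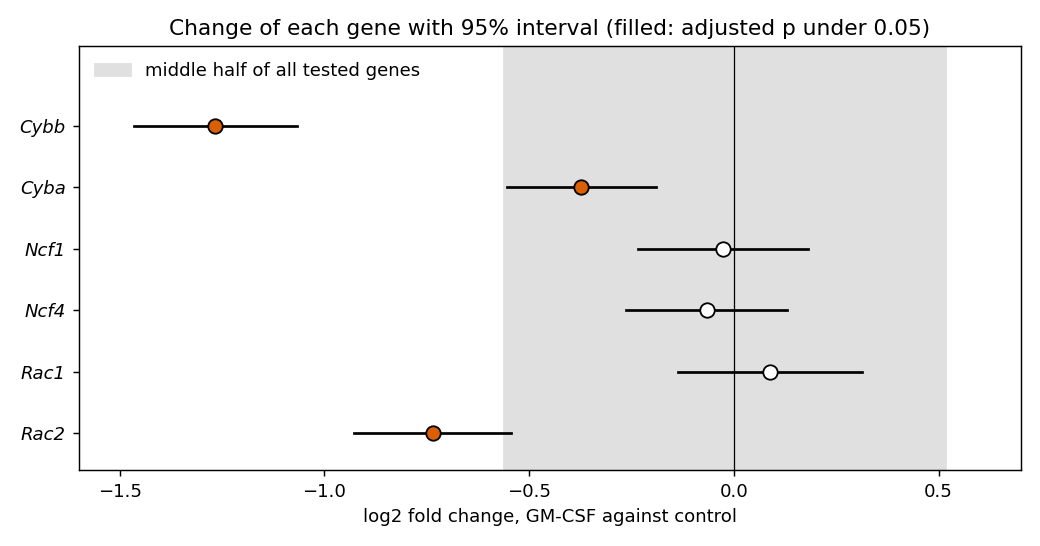
Log2 fold change of each gene, GM-CSF against control (x axis), with its 95% interval; filled points passed an adjusted p under 0.05, and the grey band spans the interquartile range of all 11731 tested genes, -0.56 to 0.52. The points of Cybb and Rac2 lie left of the band, Cyba is inside it and was called, and the intervals of Ncf1, Ncf4 and Rac1 include 0.

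The change in proportion between partners was read within each library, where scaling between libraries has no part. Cybb had 1.84, 2.29 and 1.66 reads for each read of Cyba in the controls and 1.06, 1.15 and 0.907 with GM-CSF. The ratio was lower in all 3 GM-CSF libraries than in any control, by 0.89 on the log2 scale. Rac2 had 2.19, 2.04 and 2.33 reads per read of Rac1 in controls and 1.35, 1.15 and 1.23 with GM-CSF, again with no overlap and a log2 difference of -0.82. The ratio of Ncf1 to Ncf4 was 1.96, 1.89 and 1.69 in controls and 1.73, 1.87 and 2.08 with GM-CSF, which overlapped (log2 difference 0.04). In exact two-sided permutation tests the ratio of Cybb to Cyba and that of Rac2 to Rac1 each reached p = 0.1, the smallest that 3 against 3 libraries can give, and that of Ncf1 to Ncf4 had an exact p = 0.8. Adjusted over the 3 ratios these were 0.15, 0.15 and 0.8 in the exact test, so none could have passed 0.05.

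**Figure D3:**
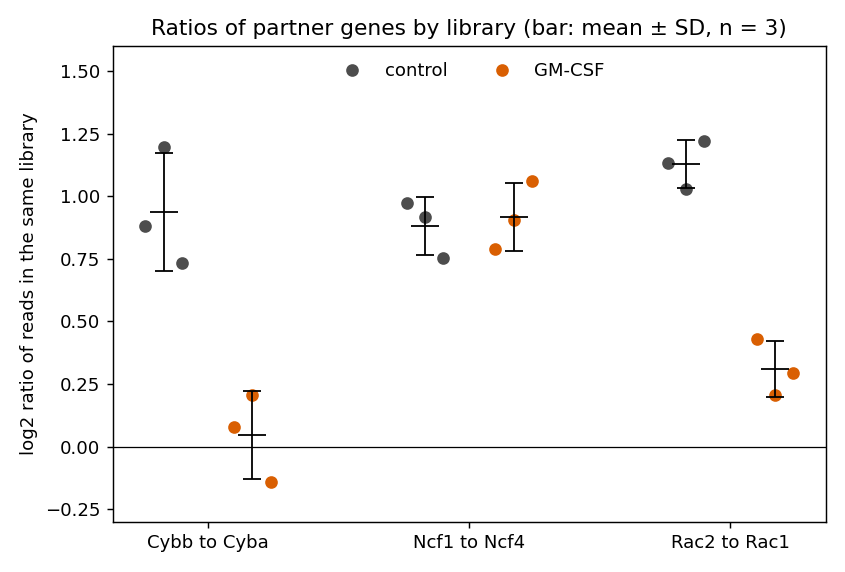
Log2 ratio of reads of partner genes within each library (y axis) for 3 pairs (x axis), in control (grey) and GM-CSF (orange) libraries, with the mean and SD of 3 libraries. The ratios of Cybb to Cyba and of Rac2 to Rac1 are lower in all GM-CSF libraries, with means of 0.94 against 0.05 and of 1.13 against 0.31, while Ncf1 to Ncf4 overlaps.

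Levels of different genes were compared per kilobase of exon. In controls Cyba was highest, at 1162 ± 86.5 CPM per kb (SD, n = 3), followed by Rac2 at 467 ± 25.8, Cybb at 398 ± 40.02, Ncf1 at 247 ± 25.5, Ncf4 at 244 ± 30.2 and Rac1 at 147 ± 4.03 CPM per kb. Ncf1 and Ncf4 did not differ beyond their spread, and Rac2 and Cybb nearly touched (448 CPM per kb as the lowest Rac2 value and 445 CPM per kb as the highest of Cybb). With GM-CSF, Cyba remained first at 893 ± 60.5 CPM per kb, and Rac2 was at 279 ± 29.1, Ncf1 at 242 ± 18.9, Ncf4 at 232 ± 6.47, Cybb at 165 ± 9.71 and Rac1 at 156 ± 24.4 CPM per kb. The ranges of Rac2 and Ncf1 overlapped there, as did those of Ncf1 and Ncf4 and those of Cybb and Rac1. Cybb thus went from the third place of the 6 to the fifth by mean level. Among 11307 tested genes with a known length, its level per kb ranked 97 in controls and 303 with GM-CSF, while that of Cyba ranked 27 and 34. With the longest transcript as the length, Cybb (487 CPM per kb) came before Rac2 (476 CPM per kb) in controls, and Ncf4 before Ncf1 in both groups. By that length Rac2 (285 CPM per kb) came after Ncf4 (320 CPM per kb) and Ncf1 (308 CPM per kb) with GM-CSF. Reads of the 6 genes together made up 0.694%, 0.701% and 0.714% of gene reads in controls and 0.448%, 0.489% and 0.504% with GM-CSF.

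**Figure D4:**
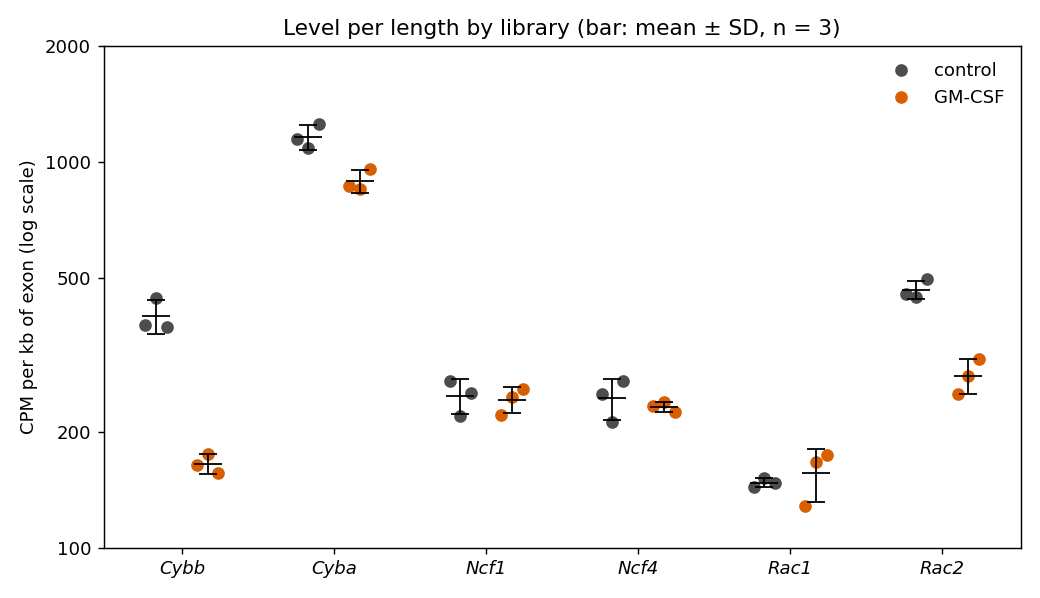
CPM per kb of exon on a log scale (y axis) for the 6 genes in control (grey) and GM-CSF (orange) libraries, with the mean and SD of 3 libraries. Cyba is highest in both groups (1162 and 893 CPM per kb on average), and Cybb, at 398 CPM per kb in controls, is at 165 CPM per kb with GM-CSF, near Rac1 at 156 CPM per kb.

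Genes with the most similar profile over the 6 libraries were sought by the root mean square difference of centred log2 CPM among 5321 genes of at least 5 log2 CPM. Cd84, an adhesion receptor gene of leukocytes, differed from Cybb by 0.03 log2 units and went from 206 to 82.8 CPM, and Ube2l6, an enzyme gene of ISG15 conjugation, by 0.05. For Rac2 they were D17H6S56E-5 (0.04) and Ssbp4 (0.04), for Cyba Galk2 (0.03) and Use1 (0.04), for Ncf1 Polr3k (0.04) and Gsr, the glutathione reductase gene (0.04), for Ncf4 Swi5 (0.03) and Lsm3 (0.05), and for Rac1 Zfp53 (0.05) and Fam107b (0.06). The points are the same 6 libraries for every gene, and no test was made.

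The gene lists around the oxidase are described by their counts, to be read beside the 31.2% lower and 32.8% higher over all genes, and nothing particular to a list is drawn from them. Of 6 tested partners that mature or serve the oxidase, 4 fell and 2 rose (median log2 fold change -0.95). Hvcn1, which encodes the voltage-gated proton channel that offsets the charge moved by the oxidase, was at 35.5, 35.6 and 45.6 CPM in controls and 11.1, 15.98 and 14.2 CPM with GM-CSF (-1.49 ± 0.15, adjusted p = 6.15e-06). BC017643, the gene now named Cybc1, whose product EROS is needed for gp91phox and p22phox protein, was at 252, 229 and 235 CPM and then at 152, 141 and 138 CPM (-0.73 ± 0.08, adjusted p = 1.01e-05). The groups of both genes were apart. S100a8 (-1.18) and S100a9 (-1.17), whose products bring arachidonic acid to the oxidase and are abundant in neutrophils, also fell. Neutrophil and precursor markers were mixed, with 9 of 15 lower, 1 higher and 5 not called, and their part in these falls was not tested. P4hb, a protein disulfide isomerase gene, rose (0.54). Rap1a, a small GTPase gene whose product copurifies with the flavocytochrome, rose by 0.22 (adjusted p = 0.0291), a call that ended without any one of control replicates 2 and 3 and GM-CSF replicates 1 and 2, after removal of a GC trend and with upper quartile scaling.

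Other enzymes of the NOX and DUOX kind were not detectable at this depth. Nox1, Nox3, Nox4, Noxa1, Duox1, Duox2 and Duoxa1 had 0 reads in all 6 libraries, where 3 reads, the limit that a count of 0 allows, equal 0.119 to 0.180 CPM per library for counting error only. Duoxa2 had 1 read in GM-CSF replicate 1. Noxo1, which encodes the NOX1 organiser, was at 1.95 ± 0.236 CPM in controls and 1.15 ± 0.463 CPM with GM-CSF (adjusted p = 0.0923), and was called without GM-CSF replicate 3.

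Of 17 tested genes for exchange factors, which load GTPases such as Rac with GTP, or for their partners, 10 fell and 3 rose (median -0.43). The largest falls were in Elmo2, a partner of DOCK exchange factors (462 ± 19.7 to 162 ± 16.3 CPM, log2 fold change -1.51), and in Arhgef6 (-1.19). Prex1 (-1.14), Dock2 (-0.79) and Vav1 (-0.46), exchange factor genes known for Rac in phagocytes and named here after their values were seen, fell too. The genes that rose were Sos1 (1.38), Tiam1 (0.59) and Arhgef7 (0.38); the Arhgef7 call ended without any one of control replicates 1 and 3 and GM-CSF replicates 1 and 2, and with upper quartile scaling. Of 12 genes that hold Rac inactive, 8 fell and 2 rose (median -0.72). Arhgap25, a Rac GTPase-activating protein gene, went from 87.7 ± 4.58 to 31.5 ± 1.24 CPM (-1.47) and Bcr fell by 1.29 on the log2 scale. Chn2, which encodes the GTPase-activating protein beta-chimaerin, rose from 16.8 ± 3.97 to 201 ± 5.16 CPM (3.59 ± 0.14), and Arhgdia, a GDP dissociation inhibitor gene, rose by 0.38.

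Other small GTPases related to Rac went both ways, with 5 of 13 tested higher and 4 lower (median 0.19). Rhoq rose from 24.0 ± 2.59 to 92.7 ± 13.1 CPM and Rhoh by 1.31 on the log2 scale, and the scarce Rhoj (2.64), Rhov (4.02, or 3.40 without GM-CSF replicate 1) and Rhoc rose. Rhoc had 6 control and 115 GM-CSF reads, a fitted change of 4.47 that was 3.83 without GM-CSF replicate 3. Rnd3 (-1.41), Rhob (-0.95), Rnd1 (-0.63) and Rhog (-0.21) fell. The Rnd1 call ended without any one of control replicates 1 and 3 and GM-CSF replicates 1 and 2. The Rhog call ended without any one of all 3 control replicates and GM-CSF replicates 1 and 2, and with the GC trend removed. Rac3 had too few reads to be tested, at 0.434 CPM on average in controls.

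**Figure D5:**
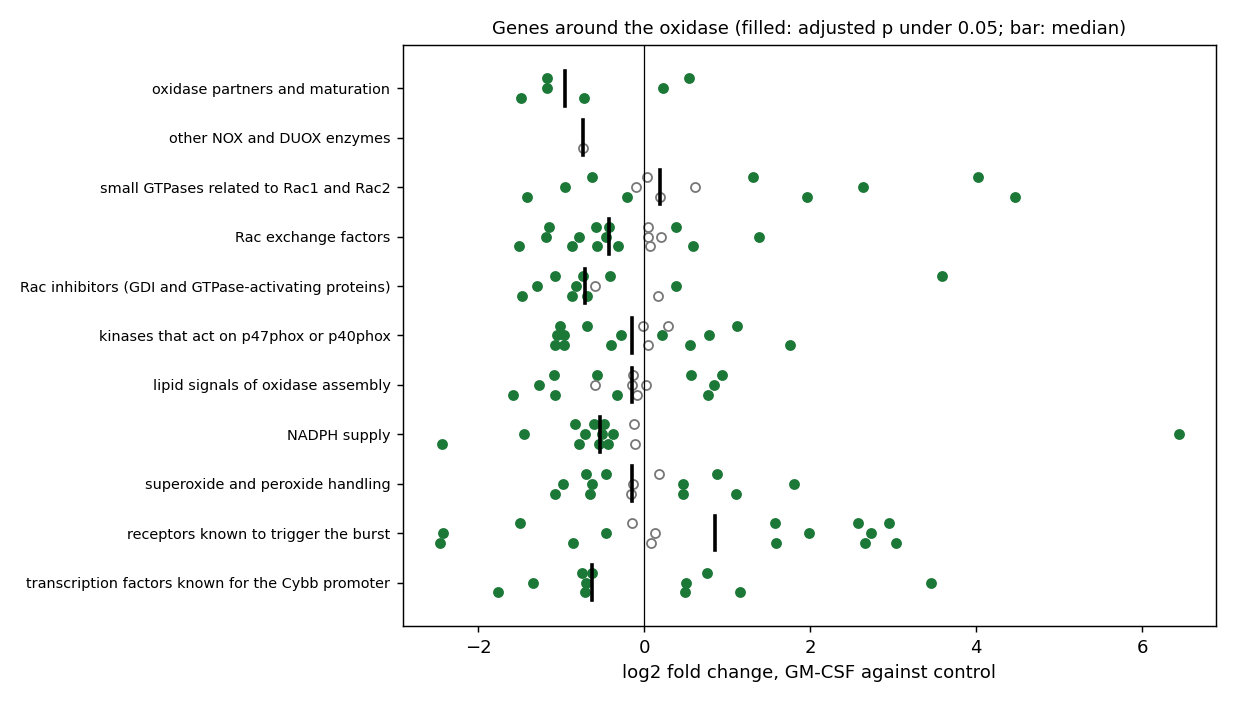
Log2 fold change, GM-CSF against control (x axis), of each tested gene in 11 lists of genes around the oxidase (y axis); filled points passed an adjusted p under 0.05 and black bars mark list medians. The medians run from -0.95 for oxidase partners to 0.85 for receptors, and the NADPH supply list has 11 genes lower and 1 higher.

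Kinases known to phosphorylate p47phox or p40phox, or to act upstream of that step, were mixed. Of 16 tested, 8 fell and 5 rose (median -0.14). Prkcd, which encodes protein kinase C delta, a kinase of p47phox, was at 1187, 1080 and 1094 CPM in controls and 2309, 2351 and 2603 CPM with GM-CSF (1.12 ± 0.08, adjusted p = 6.81e-07). Akt2 (0.78) and Pak2 (0.55) rose, as did Akt1, whose 116, 147 and 583 CPM with GM-CSF rested on replicate 3: its log2 fold change was 1.76, 0.66 without that library and not called with the robust prior (adjusted p = 0.110). Among 15 genes of the lipid signals of assembly, 6 fell and 4 rose (median -0.15). Pld1 (-1.58), Plcg2 (559 ± 21.2 to 231 ± 12.2 CPM) and Plcb2 (-1.09), which encode phospholipases, fell, and the phosphoinositide kinase genes or subunits Pik3r1 (0.94), Pip5k1a (0.84), Pip5k1c (0.76) and Pik3r5 (0.56) rose. Pik3c3, which encodes the kinase that makes the lipid bound by p40phox and was named after its value was seen, was at 52.0 and 46.6 CPM on average (adjusted p = 0.133).

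Of 14 tested genes in the list for the supply of NADPH, the electron donor, 11 fell and 1 rose (median -0.53). Over all genes 31.2% were lower and 32.8% higher. The list is not limited to enzymes that make NADPH for the oxidase, and Me2, Taldo1, Tkt, Rpia and Rpe are counted in it. Idh1, the cytosolic isocitrate dehydrogenase gene, went from 650 ± 105 to 120 ± 9.33 CPM (log2 fold change -2.43 ± 0.12, adjusted p = 2.93e-08) and H6pd by -1.45. The genes of the pentose phosphate enzymes G6pdx (-0.44) and Pgd (-0.51), named after their values were seen, fell by less. Me1, the malic enzyme gene, had 3 control and 224 GM-CSF reads, or 95.2 times as many after scaling by depth (95% interval of counting error 32.2 to 465). Genes that handle superoxide and peroxide were divided, with 6 of 14 lower and 5 higher (median -0.15). Gpx1, a glutathione peroxidase gene, went from 3567 ± 176 to 1688 ± 57.2 CPM and Cat, the catalase gene, from 162 ± 13.02 to 81.8 ± 9.97 CPM. Prdx6 (1.10), Prdx3 (0.88), Sod2 (0.47) and the chloride transporter gene Clcn3 (0.47) rose. Aqp9 (1.80, at most 2.15 CPM in any library) was called as well, but not without any one of control replicates 2 and 3 and GM-CSF replicate 1, and was at 2.79 without control replicate 1.

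Of 16 tested genes in the receptor list, 8 rose and 5 fell (median 0.85), beside 32.8% higher and 31.2% lower over all genes. The list is not limited to receptors that trigger the oxidase, and Fcgr2b, Csf2ra and Csf2rb are counted in it. Tlr2 rose from 142 ± 10.5 to 1164 ± 163 CPM, C5ar1, the complement C5a receptor gene, from 33.8 ± 4.38 to 259 ± 54.5 CPM, and Csf2rb, the signalling chain of the GM-CSF receptor, by 2.73 ± 0.09 on the log2 scale, while Csf2ra was not called (0.08, or -0.03 with upper quartile scaling). The formyl peptide receptor genes Fpr2 (22.9 ± 5.45 to 4.13 ± 0.431 CPM) and Fpr1 (-2.42) fell, and the Fc receptor genes went both ways. Fcgr4 (-1.50), Fcgr1 (-0.86) and Fcer1g (-0.46) fell, while Fcgr2b (207 ± 7.19 to 1234 ± 43.3 CPM) and Fcgr3 (509 ± 54.1 to 1525 ± 90.5 CPM), named after their values were seen, rose.

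Transcription factors known for the Cybb promoter were split: 5 of 11 rose and 6 fell (median -0.63). Spi1, which encodes PU.1, was at 564, 557 and 596 CPM in controls and 943, 910 and 1024 CPM with GM-CSF (0.75 ± 0.07, adjusted p = 6.15e-06). Irf8, the gene of an interferon regulatory factor that pairs with PU.1 on the composite motif, was at 762, 624 and 606 CPM and then at 259, 265 and 259 CPM (-1.34 ± 0.10, adjusted p = 5.07e-07). Both genes had groups without overlap, in opposite directions. Cux1 (1.15), Irf2 (0.50) and Rela (0.49) rose. Cebpb rose by 3.46, with 575, 925 and 3789 CPM in the GM-CSF libraries, and by 2.23 without GM-CSF replicate 3. Whether any of these changes bears on the fall of Cybb was not tested.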

How the data were processed

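The authors deposited raw read counts per gene symbol, 1 column per sample, and columns were matched to sample titles. STAR 2.5.2a, Trim Galore 0.4.4, mm10, HTSeq 0.6.1p1 and edgeR are named, without roles, per the submitters' processing notes. The sources used here give neither annotation nor strand. Entries naming no gene were left out; 69.4% to 71.2% of counted reads lay in genes, 16643228 to 25232956 per library. In R 4.3.3, edgeR 4.0.16 was used with TMM (factors 0.987 to 1.02), filterByExpr (minimum count 10, minimum total 15) and quasi-likelihood F tests (two-sided) with group as the only term. P-values were adjusted by Benjamini-Hochberg over 11731 genes (threshold 0.05). SE was taken from the log2 fold change and F (its size over √F) and may be too small for genes with few reads. CPM uses the total of gene counts. Exon lengths, loci and GC came from GENCODE M21 (GRCm38, which mm10 denotes), matched by symbol for 23376 of 24421 entries. The procedure was tested on simulated data with few changed genes, which does not test the scaling where most genes are called, as here. Alternatives used other scalings and filters, a robust prior, a replicate block, DESeq2 1.42.0, limma-voom (limma 3.58.1), removal of the 10 most abundant genes and of each library in turn; removal of a GC trend (loess, span 0.5) was added after seeing the data. The members, lists and motifs were chosen with earlier results of these data known. From each list the text names the 3 called genes with the largest change at a mean log2 CPM of at least 1, all genes of a direction taken by 5 or fewer, and others where it says so (a few that the rule names are not reported here); for likeness, the 2 nearest genes of each member.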

Additional observations from a re-analysis of the deposited data

How the results depend on the processing

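Of 102 recomputed log2 fold changes of the 6 genes, 96 kept direction and call, and Cybb, Cyba and Rac2 stayed called lower in every alternative run, at -1.42 to -1.18, -0.49 to -0.30 and -0.85 to -0.67. Without single libraries, the ranges were -1.32 to -1.18 for Cybb, -0.42 to -0.33 for Cyba, -0.81 to -0.67 for Rac2, -0.107 to 0.0521 for Ncf1, -0.16 to 0.00 for Ncf4 (1.35e-05 without control replicate 3) and 0.0120 to 0.204 for Rac1, and the number of the 6 genes called higher was 0 to 1. The log2 ratio difference of Ncf1 to Ncf4 ran from -0.0341 to 0.102 in these. Rac1 turned to -0.0291 and Csf2ra to -0.0342 with upper quartile scaling, which shifted the median of all genes by -0.12, and Ncf1 turned to 0.00814 with the GC trend removed; the cause was not tested. The number of genes called over all genes was 6739 to 7739. With the replicate block, 7493 genes were called and the same 3 members (Cybb at -1.26); the shared numbers do not show a pairing, since deviations of same-numbered libraries correlated at 0.07, 0.01 and 0.00, and 1 of the 3 control libraries correlated best with its own number. With the longest transcript as length, levels per kb rose, for Cybb to 487 and 202 CPM per kb. Of 1085 values of the other named genes, 1054 kept direction and call. At these depths all 6 genes had at least 7880 reads in every library, and the number of libraries limits the precision.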
